A study of Homo sapiens with 6 samples.

Results

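The β-catenin destruction complex was followed through 10 genes: CTNNB1, APC, AXIN1, GSK3A, GSK3B, CSNK1A1, BTRC, AMER1, CTNNBIP1 and TNKS. They were picked by name, and they are 10 of the 58233 genes in the deposited tables and 75 of the 199234 transcripts. RNA sequencing was done on Huh7 cells, a human hepatocellular carcinoma line, in 3 libraries from cells given a plasmid that overexpresses TP53TG1 (a long noncoding RNA gene) and 3 libraries from cells given a control plasmid. The title of the study names the β-catenin pathway, so the comparison asks whether the RNA of β-catenin and of the machinery that degrades it differed with TP53TG1. The vector, its promoter and the time after transfection are not stated in these sources, and neither is whether the replicates came from separate cultures, so the p-values measure only the spread between these libraries, which may be technical.

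In cells without a Wnt signal, the scaffolds APC, AXIN1 and AMER1 hold β-catenin beside 2 kinds of kinase. Casein kinase 1α phosphorylates a serine of β-catenin first, and glycogen synthase kinase 3 then phosphorylates further residues towards the amino end. The F-box protein β-TrCP, made from BTRC, binds the phosphorylated stretch, and β-catenin is ubiquitinated and degraded. Tankyrase, made from TNKS, marks axin for degradation, and CTNNBIP1 (also called ICAT) keeps β-catenin from binding TCF transcription factors. The complex acts on β-catenin protein, which these libraries do not measure, and in liver cancer the pathway is known for mutations in CTNNB1 and AXIN1.

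The phosphorylated stretch is encoded by exon 3 of CTNNB1, which is shown because it carries the residues that the kinases and β-TrCP act on. It spans chr3:41224526-41224753 on the plus strand and is 228 nt long. Capitals mark codons 33, 37 and 41, the glycogen synthase kinase 3 sites, and codon 45, the casein kinase 1 site. This is the annotated sequence of GENCODE release 29 (GRCh38), not a sequence read from these libraries, and it says nothing about mutations in them.
CTNNB1 exon 3: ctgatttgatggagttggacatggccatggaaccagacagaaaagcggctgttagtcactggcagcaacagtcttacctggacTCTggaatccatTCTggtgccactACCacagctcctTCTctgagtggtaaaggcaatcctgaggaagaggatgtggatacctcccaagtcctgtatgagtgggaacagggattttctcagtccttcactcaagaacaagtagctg

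Transcripts that contain exon 3 held 98.9%, 99.6% and 99.8% of the CTNNB1 value in the TP53TG1 libraries (replicates 1, 2 and 3), and 99.5%, 99.6% and 99.5% in the control libraries. Nearly all of the CTNNB1 value in both groups was thus assigned to transcripts that contain the exon. Every annotated transcript with the 2343 nt coding sequence of CTNNB1 contains it. RNA that skipped the exon had no such transcript to be assigned to, so the shares cannot show whether any did. These shares are sums of estimated transcript values, not counts of reads across the exon's junctions.

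Values are FPKM (fragments assigned to a transcript, divided by its length in kilobases and by the depth of the library), summed over the transcripts of a gene. TP53TG1 itself had 69.83, 134.21 and 70.48 FPKM in the TP53TG1 libraries, against 10.57, 5.25 and 6.15 FPKM in the control libraries. The groups did not overlap, and the log2 fold change was 3.46 (SE 0.381, adjusted p = 0.0573, limma with Benjamini-Hochberg adjustment over 12853 genes), which missed the threshold of 0.05 as deposited and passed it after median-of-ratios scaling (adjusted p = 0.039). Both libraries numbered 1 stood apart from the other 4 on the first principal component (62.5% of the variance), at -97.2 for TP53TG1 replicate 1 and -30.6 for control replicate 1, against 14.6 to 42.1 for the others. Estimated depth was 15500000 to 19300000 fragments per library. Across all tested genes the median log2 fold change was -0.35 as deposited and -0.01 after scaling. Most genes were thus lower on average in the TP53TG1 libraries, and the members are read against that shift. Without TP53TG1 replicate 1 the median was -0.12, so that library carried much of the shift. Its scaling factor was 0.6152, against 1.117 and 0.9941 for TP53TG1 replicates 2 and 3 and 1.118 to 1.19 for the controls. Of the hepatocyte markers, HNF4A had 2.57 to 14.59 FPKM in the TP53TG1 libraries and 7.28 to 14.98 FPKM in the control libraries, but ALB stayed at 0.56 to 1.22 FPKM and 0.53 to 1.1 FPKM and TTR at 0.17 FPKM or below in all 6. The intestinal marker KRT20 had 51.07 to 111.56 FPKM in the TP53TG1 libraries and 116.94 to 170.72 FPKM in the control libraries, although the label is a liver line. The summed FPKM of the 6 intestinal markers was 65.2 to 145 in the TP53TG1 libraries against 157 to 212 in the control libraries, with CDX1 listed at 0 in all 6. Of these markers 4 were tested, with a median log2 fold change of -0.98 (-0.6 after scaling) and KRT20 at -0.88. In limma 3 of the 4 had an unadjusted p under 0.05, as 302 of all 12853 tested genes had. None passed after adjustment (lowest adjusted p = 0.748). The summed FPKM of the 6 stromal markers was 351 to 540 against 481 to 778, a sum carried by FN1 and VIM, while 5 of the 6 had log2 fold changes above the all-gene median (list median 0.47) and COL1A1 was higher in every TP53TG1 library, at 3.05 to 10.88 FPKM, than in any control library, at 1.81 to 2.85 FPKM. The sum of the 12 hepatocyte markers was 52.4 to 110 against 118 to 132. Leukocyte PTPRC was at 0.13 FPKM or below, and the 5 leukocyte markers summed to 45.3 to 65.6 FPKM against 32.6 to 62.3 FPKM, nearly all of it CD68. The part of these marker levels in the results on the destruction complex was not tested.

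None of the destruction complex genes passed the test for a difference between TP53TG1 and control. Of the 10 genes 9 had a mean of at least 1 FPKM and were tested, and 0 of 9 passed the adjusted threshold in limma, where 0.00778% of all 12853 tested genes passed. That share is a single gene, TTC28-AS1_2, named here after its value was seen, so a count of 0 among 9 members is not distinct from the background. At an unadjusted p under 0.05 the count was still 0 of 9 members, against 302 of all tested genes, of which 56 were higher and 246 lower in the TP53TG1 libraries. The median log2 fold change of the 9 members was -0.41, beside -0.35 over all tested genes, and it was -0.03 beside -0.01 after median-of-ratios scaling. The count stayed at 0 of 9 with that scaling, where 0.0156% of all tested genes passed, with the replicate number as a block, where 1.49% passed, and with both, where 0.0467% passed. In bulk RNA, fewer cells with a transcript and less of it per cell cannot be told apart.

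**Figure D1:**
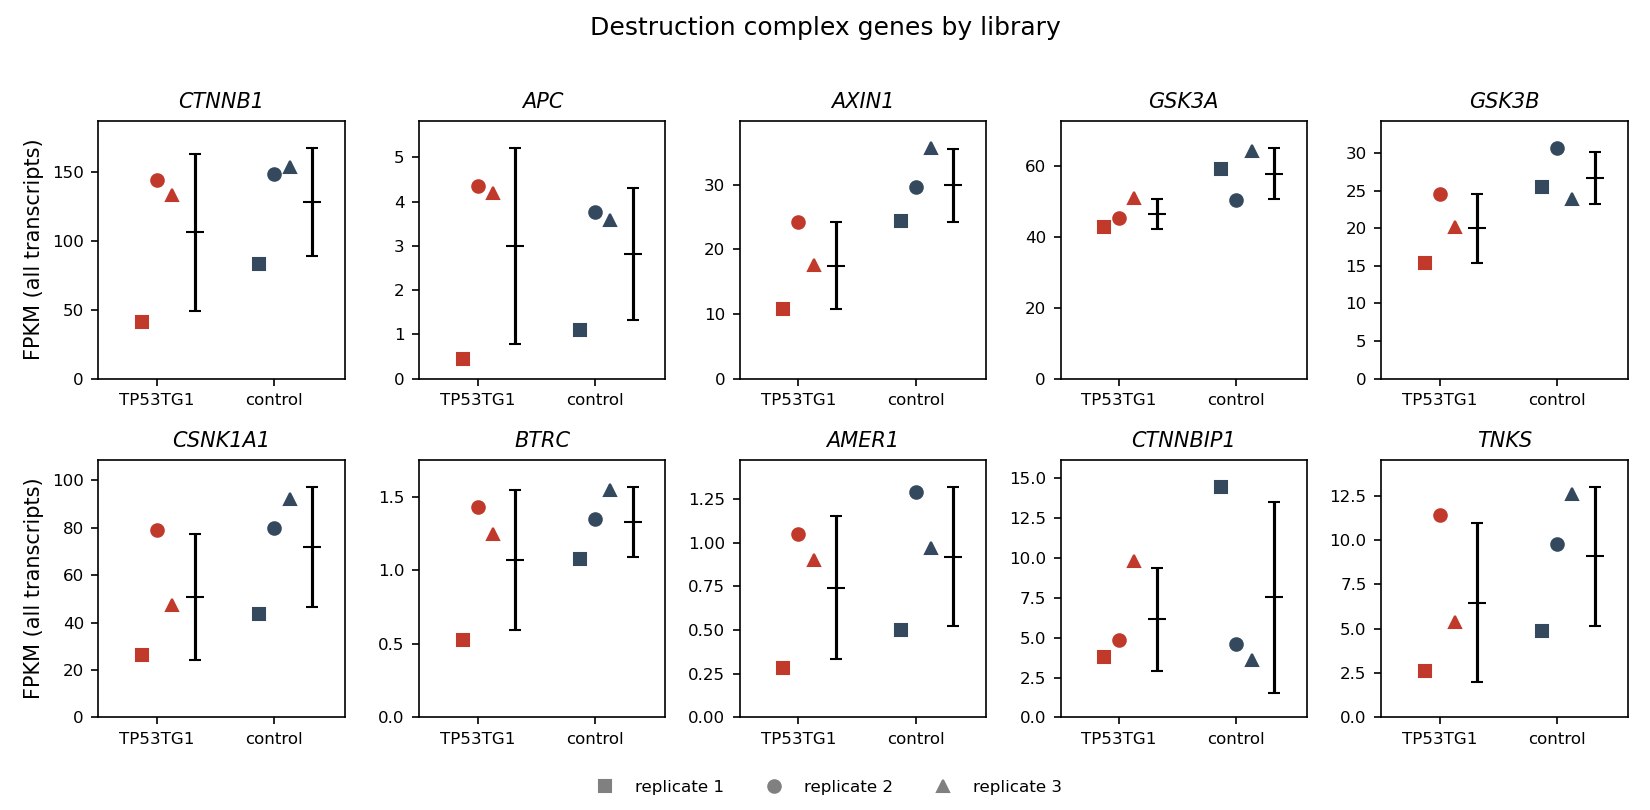
FPKM (linear axis from 0, a scale for each gene) of the 10 destruction complex genes in each library, with TP53TG1 libraries left of control libraries; symbols mark the replicate number, and black bars the mean ± SD of 3 libraries. CTNNB1 was the highest in mean (117 FPKM) and AMER1 the lowest (0.832 FPKM), and AXIN1 was the only one of the 10 whose groups did not overlap. Of all tested genes, 13.3% likewise had every TP53TG1 library below every control library, so 1 of 10 is near that background.

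**Figure D2:**
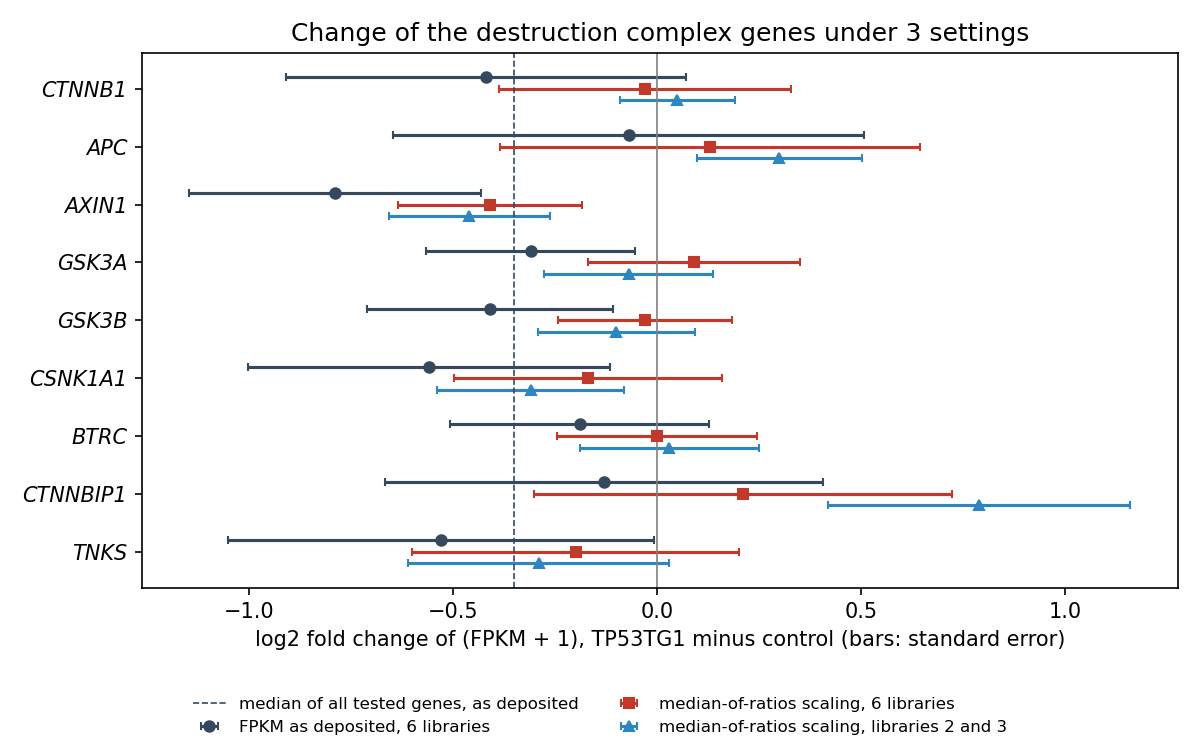
Log2 fold change of (FPKM + 1), TP53TG1 minus control, of the 9 tested destruction complex genes as deposited (circles), after median-of-ratios scaling (squares) and with scaling in replicates 2 and 3 only (triangles), with standard errors as bars and the as-deposited median of all tested genes (-0.35) as a dashed line. AXIN1 is the lowest under all 3 settings, at -0.79, -0.41 and -0.46, and scaling brings CTNNB1 from -0.42 to -0.03.

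The members spanned a wide range of levels in these cells. By their mean over the 6 libraries the order was CTNNB1 at 117 FPKM, CSNK1A1 at 61.4, GSK3A at 52.3, AXIN1 at 23.7, GSK3B at 23.4, TNKS at 7.76, CTNNBIP1 at 6.84, APC at 2.9, BTRC at 1.2 and AMER1 at 0.832 FPKM. The substrate was above the next gene in 6 of 6 libraries. Some neighbours in that order did not separate: CSNK1A1 was above GSK3A in 3 of 6 libraries, AXIN1 above GSK3B in 1 of 6 and TNKS above CTNNBIP1 in 3 of 6. Among the 3 scaffolds AXIN1 thus had the highest level per length and AMER1 the lowest.

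CTNNB1, on chromosome 3 (41194741 to 41260096, plus strand), encodes β-catenin, the substrate of the complex and a coactivator of TCF factors. It had 40.69, 144.04 and 132.9 FPKM in TP53TG1 replicates 1 to 3, against 83.48, 148.4 and 153.52 FPKM in control replicates 1 to 3. Replicate 1 was the lowest library in both groups, the TP53TG1 one by more, and the groups overlapped. The means were 106 ± 56.7 FPKM with TP53TG1 and 128 ± 39.0 FPKM in controls (SD, n = 3 each), a log2 fold change of -0.42 (SE 0.49, 95% confidence interval -1.53 to 0.69, limma adjusted p = 0.748). The two-sided exact permutation p was 0.5, where the smallest p that 3 against 3 libraries allow is 0.1. Taken by replicate number, the TP53TG1 value was 0.49, 0.97 and 0.87 times the control value, and after median-of-ratios scaling 0.89, 1.03 and 1.03 times. Leaving out TP53TG1 replicate 1 turned the log2 fold change to 0.16, and the interval does not exclude a moderate difference in either direction.

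The CTNNB1 value was split over 3 main transcripts with the same 2343 nt of coding sequence, so they differ only outside it. ENST00000396185 held 49.6%, 49.8% and 49.4% in the TP53TG1 libraries and 46.5%, 50.1% and 49.7% in the control libraries. The mean share was 49.6 ± 0.178% against 48.7 ± 1.99% (SD, n = 3 each; exact permutation p = 0.9), so the mix hardly moved although the gene's level ranged over more than a factor of 3 between libraries. ENST00000349496 held 28.2%, 22.1% and 27.0% against 27.4%, 23.5% and 23.7%. ENST00000396183 held 21.1%, 26.8% and 22.4% against 25.7%, 24.9% and 24.9%. At the transcript level 0 of the 23 tested transcripts of the members passed in limma (1 had an unadjusted p under 0.05), against 0.00329% of 30396 transcripts tested.

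**Figure D3:**
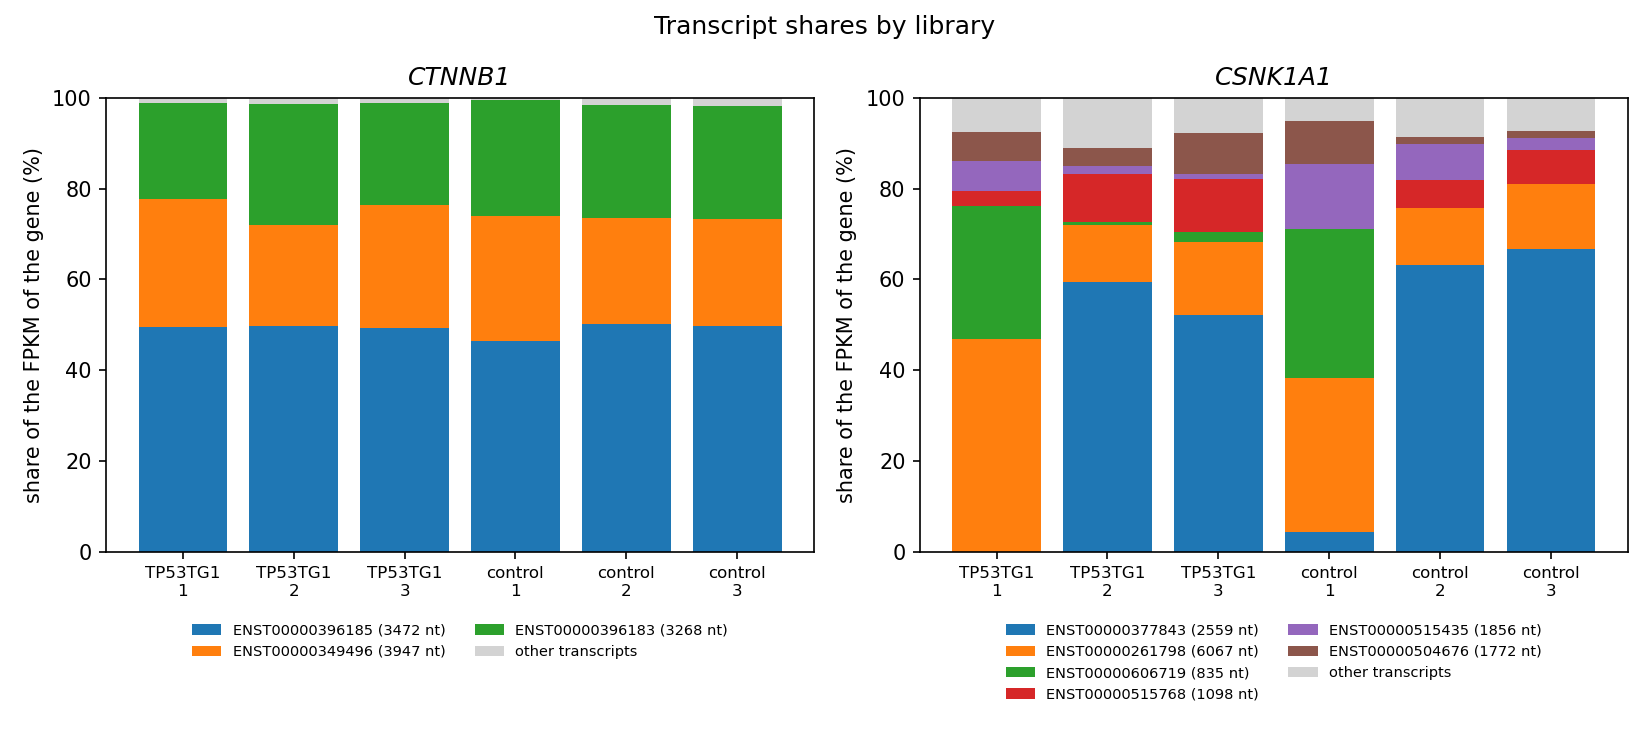
Percent of the FPKM of CTNNB1 (left) and CSNK1A1 (right) held by each transcript in each library, TP53TG1 libraries left of control libraries. The 3 main CTNNB1 transcripts keep nearly the same shares in all 6 libraries, while the leading CSNK1A1 transcript is at 0 in TP53TG1 replicate 1 and at 4.42% in control replicate 1 and at 52.1% or more in the other 4.

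AXIN1, the scaffold that brings the kinases to β-catenin, lies on chromosome 16 (287440 to 352673, minus strand). It had 10.74, 24.2 and 17.51 FPKM in the TP53TG1 libraries, against 24.32, 29.62 and 35.63 FPKM in the control libraries. Every TP53TG1 library was below every control library, though TP53TG1 replicate 2 and control replicate 1 differed by little. The means were 17.5 ± 6.73 FPKM and 29.9 ± 5.66 FPKM (SD, n = 3 each), a log2 fold change of -0.79 (SE 0.358, 95% confidence interval -1.60 to 0.02, limma adjusted p = 0.748), and the exact permutation p was 0.1, the smallest this design allows. Of all tested genes, 13.3% had all TP53TG1 libraries below all control libraries, so 1 of 9 members is near that background, and no member had all TP53TG1 libraries above all control libraries, as 0.428% of tested genes did. After median-of-ratios scaling the AXIN1 values were 17.5, 21.7 and 17.6 against 21.8, 24.9 and 30.0, still without overlap, where 2.18% of tested genes were lower and 1.89% higher in that way, and the log2 fold change was -0.41.

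ENST00000354866 led AXIN1 with 78.8 ± 3.42% of its value in the TP53TG1 libraries and 83.2 ± 3.89% in the control libraries (SD, n = 3 each; exact permutation p = 0.3). ENST00000262320 differs from it by a coding exon of 108 nt, shown in capitals with 12 bases of the spliced transcript on either side because it is the only coding difference between the 2 main AXIN1 transcripts. It lies at chr16:291190-291297 on the minus strand, and the sequence is written 5′ to 3′ along the transcript.
AXIN1 cassette exon: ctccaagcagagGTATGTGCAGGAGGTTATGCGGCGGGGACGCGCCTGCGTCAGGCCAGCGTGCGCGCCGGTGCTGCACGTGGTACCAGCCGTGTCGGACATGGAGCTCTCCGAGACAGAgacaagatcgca

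Of the AXIN1 value in transcripts that reach both sides of this exon, 23.7%, 13.1% and 15.0% contained it in the TP53TG1 libraries, against 11.2%, 15.0% and 18.7% in the control libraries. The groups overlapped, and most AXIN1 RNA in every library lacked the exon. This segment and those of CSNK1A1 and GSK3B were picked after transcript values had been seen, so they are described without a test.

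APC, on chromosome 5 (112707498 to 112846239, plus strand), is the large scaffold that binds β-catenin and axin. It had 0.44, 4.35 and 4.19 FPKM in the TP53TG1 libraries, against 1.1, 3.76 and 3.59 FPKM in the control libraries. Both libraries numbered 1 were far below the other 4, which lay close together. The log2 fold change was -0.07 (SE 0.578, limma adjusted p = 0.95), and the interval from -1.38 to 1.25 is the widest of the 9. The full-length ENST00000257430 held 66.9 ± 28.8% of APC with TP53TG1 and 71.6 ± 21.9% in controls (SD, n = 3 each). Part of the rest was not coding for the whole protein: the 573 nt transcript ENST00000505350, annotated as a target of nonsense-mediated decay, had 0, 1.94 and 1.78 FPKM against 0, 0.69 and 1.02 FPKM. Over protein coding transcripts alone the log2 fold change of APC was -0.29.

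AMER1, on chromosome X (64185117 to 64205744, minus strand), encodes a membrane-associated scaffold that binds APC. It had 0.28, 1.05 and 0.9 FPKM in the TP53TG1 libraries, against 0.5, 1.29 and 0.97 FPKM in the control libraries. With a mean of 0.832 FPKM it was the member just under the filter of 1 FPKM, and BTRC, at 1.2 FPKM, was the member just above it. Fitted without a filter, its log2 fold change was -0.15 (SE 0.283, limma adjusted p = 0.847), on an estimated 36.7 to 195 fragments per library. Its transcripts ENST00000330258 and ENST00000374869 share the same 3405 nt of coding sequence; the first had 0.04, 0.73 and 0.64 FPKM against 0.18, 1.29 and 0.86 FPKM, and was the minor one in both libraries numbered 1 only.

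CSNK1A1, on chromosome 5 (149492197 to 149551552, minus strand), encodes casein kinase 1α, which adds the priming phosphate. It had 26.15, 78.94 and 47.31 FPKM in the TP53TG1 libraries, against 43.64, 80.0 and 92.12 FPKM in the control libraries. Replicates 2 were nearly equal, and TP53TG1 replicates 1 and 3 were below their control counterparts. The log2 fold change was -0.56 (SE 0.444, 95% confidence interval -1.57 to 0.45, limma adjusted p = 0.748), and -0.17 after median-of-ratios scaling.

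The transcript make-up of CSNK1A1 differed between the libraries numbered 1 and the others in both groups. ENST00000377843 had 0, 46.87 and 24.66 FPKM in the TP53TG1 libraries, against 1.93, 50.47 and 61.58 FPKM in the control libraries. The 835 nt ENST00000606719 had the reverse order, with 7.71, 0.47 and 1.04 FPKM against 14.35, 0 and 0 FPKM. Both libraries numbered 1 were thus low in the first and high in the second, and a listed 0 may be a failed estimate. ENST00000261798 was the steadiest, with 12.23, 9.99 and 7.61 FPKM against 14.77, 10.12 and 13.18 FPKM. The share of the leading transcript was 37.2 ± 32.4% with TP53TG1 and 44.8 ± 35.0% in controls (SD, n = 3 each; exact permutation p = 0.5).

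Casein kinase 1α has 2 known inserts: a long one within the kinase domain that carries a nuclear localisation signal, and a short one near the carboxyl end. Both are shown because they separate its protein forms, the long one at chr5:149517794-149517877 and the short one at chr5:149505447-149505482, minus strand, in capitals between 12 flanking bases on either side.
CSNK1A1 long insert: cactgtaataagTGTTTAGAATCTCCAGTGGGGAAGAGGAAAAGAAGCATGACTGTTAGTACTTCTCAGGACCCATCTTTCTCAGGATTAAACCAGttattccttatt
CSNK1A1 short insert: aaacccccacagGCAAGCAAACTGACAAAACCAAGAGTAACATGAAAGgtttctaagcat

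The long insert of 84 nt was contained in 15.6%, 13.9% and 14.3% of the value of the transcripts that span its site in the TP53TG1 libraries, against 23.2%, 15.5% and 10.8% in the control libraries. The short insert of 36 nt was contained in 35.3%, 79.4% and 71.7%, against 39.2%, 75.7% and 80.3%. Transcripts with the short insert were in the majority in all 4 libraries numbered 2 and 3 and in the minority in both libraries numbered 1, and the groups overlapped for both inserts. In both libraries numbered 1 the value with the short insert was mostly ENST00000606719, at 7.71 of 8.53 FPKM with TP53TG1 and 14.35 of 16.28 FPKM in the control. The transcripts compared for the short insert run from 835 nt to 6067 nt (ENST00000261798), and the part of length in these shares was not tested.

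GSK3A, on chromosome 19 (42230186 to 42242625, minus strand), and GSK3B, on chromosome 3 (119821323 to 120094417, minus strand), encode the kinases that complete the phosphorylation. GSK3A had 42.92, 45.49 and 51.14 FPKM in the TP53TG1 libraries, against 59.16, 50.43 and 64.52 FPKM in the control libraries. GSK3B had 15.39, 24.61 and 20.13 FPKM, against 25.54, 30.63 and 23.93 FPKM. Each pair of groups overlapped in 1 place only, TP53TG1 replicate 3 above control replicate 2 for GSK3A and TP53TG1 replicate 2 above control replicate 3 for GSK3B. The log2 fold changes were -0.31 (SE 0.256) and -0.41 (SE 0.302), both with a limma adjusted p of 0.748, and after scaling 0.09 and -0.03. GSK3A was the more abundant in every library, at 2.79, 1.85 and 2.54 times GSK3B with TP53TG1 and 2.32, 1.65 and 2.7 times in controls (exact permutation p = 0.6).

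One transcript, ENST00000222330, held 95.6 ± 1.25% of GSK3A in the TP53TG1 libraries and 94.6 ± 2.6% in the control libraries (SD, n = 3 each). GSK3B instead was divided by a 39 nt exon that adds 13 codons to the kinase domain. It is shown in capitals from chr3:119866590-119866628 on the minus strand because transcripts with and without it, the latter including a noncoding one, held similar parts of the GSK3B value.
GSK3B cassette exon: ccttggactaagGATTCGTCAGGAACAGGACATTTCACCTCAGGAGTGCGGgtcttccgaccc

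Transcripts with this exon held 61.3%, 42.2% and 52.3% of the GSK3B value in the TP53TG1 libraries, against 55.4%, 48.8% and 44.4% in the control libraries. The 2 ranges overlapped, and replicate 1 had the highest share in each group. The transcripts set against each other differ in length, 1636 nt with the exon (ENST00000316626) against 7711 nt (ENST00000264235) and 438 nt (ENST00000473886, annotated as noncoding) without it. ENST00000316626 had 9.43, 10.39 and 10.53 FPKM with TP53TG1 and 14.15, 14.94 and 10.63 FPKM in controls. The coding ENST00000264235 was lower in every library, at 2.55, 10.1 and 8.56 FPKM against 6.57, 11.75 and 9.98 FPKM.

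BTRC, on chromosome 10 (101354033 to 101557321, plus strand), encodes β-TrCP, the adaptor that presents β-catenin to the ubiquitin ligase. It had 0.53, 1.43 and 1.25 FPKM in the TP53TG1 libraries, against 1.08, 1.35 and 1.55 FPKM in the control libraries. TP53TG1 replicate 1 alone stood low, and the other 5 libraries lay within 1.08 to 1.55 FPKM. The log2 fold change was -0.19 (SE 0.318, limma adjusted p = 0.77). It rested on an estimated 46.2 to 159 fragments per library, and its 95% confidence interval ran from -0.91 to 0.53. ENST00000408038 held 60.2 ± 41.3% of its value with TP53TG1 and 50.0 ± 2.92% in controls (SD, n = 3 each; exact permutation p = 0.7), and ENST00000370187 had 0, 0.47 and 0.46 FPKM against 0.55, 0.35 and 0.65 FPKM.

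TNKS, on chromosome 8 (9555914 to 9782346, plus strand), encodes tankyrase 1, the axin antagonist. It had 2.64, 11.39 and 5.35 FPKM in the TP53TG1 libraries, against 4.86, 9.77 and 12.57 FPKM in the control libraries. The highest and the lowest control libraries enclosed 2 of the 3 TP53TG1 libraries. The log2 fold change was -0.53 (SE 0.522, limma adjusted p = 0.748). ENST00000310430 held 87.5%, 67.4% and 91.8% of TNKS with TP53TG1 and 98.4%, 86.5% and 78.0% in controls (exact permutation p = 0.7).

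CTNNBIP1, on chromosome 1 (9848276 to 9910336, minus strand), encodes the small inhibitor of the β-catenin and TCF interaction, and its values ran differently from those of the other members. It had 3.77, 4.88 and 9.81 FPKM in the TP53TG1 libraries, against 14.44, 4.58 and 3.58 FPKM in the control libraries. One control library, replicate 1, was the highest of all 6, and TP53TG1 replicate 3 came next. The log2 fold change was -0.13 (SE 0.536, limma adjusted p = 0.896) and became 0.41 without control replicate 1 and -0.47 without TP53TG1 replicate 3. By replicate number the TP53TG1 value was 0.26, 1.07 and 2.74 times the control value, so no direction can be given. Its 3 main transcripts share the same 243 nt of coding sequence, and the leading one, ENST00000400904, held 50.8 ± 27.5% with TP53TG1 and 47.0 ± 5.77% in controls (SD, n = 3 each; exact permutation p = 0.8). ENST00000377258 had 0, 1.62 and 5.04 FPKM against 0, 1.41 and 1.67 FPKM, highest in TP53TG1 replicate 3, and ENST00000377263 stayed at 0.78 to 0.88 FPKM against 0.45 to 1.85 FPKM. Over the leading transcripts of all 9 tested members, every share difference had an adjusted p of 0.9 (exact permutation test, which cannot go below 0.1 before adjustment).

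Setting CTNNB1 against each other member within a library removes the scale of that library, but not a difference between libraries that varies with transcript length. CTNNB1 was 0.948, 3.17 and 2.6 times GSK3A in the TP53TG1 libraries and 1.41, 2.94 and 2.38 times in the control libraries, lowest in replicate 1 of each group. CTNNB1 was 3.79, 5.95 and 7.59 times AXIN1 in the TP53TG1 libraries, against 3.43, 5.01 and 4.31 times in the control libraries. That ratio was the higher one in the TP53TG1 library of each replicate number, but the groups overlapped, the log2 difference was 0.40 and the exact permutation p was 0.3. For the other 8 members the log2 difference lay between -0.30 (CTNNBIP1) and 0.20 (TNKS), all groups overlapped, and the adjusted p was 1.0 for all 9 ratios. Each log2 difference was smaller than the SD of its ratio in the TP53TG1 libraries. The differences for AXIN1 (0.40) and CSNK1A1 (0.14) were larger than the SD in the control libraries (0.27 and 0.1). Since the smallest exact p is 0.1, this test could not have called a ratio at 0.05, so it cannot show that the ratios were equal.

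**Figure D4:**
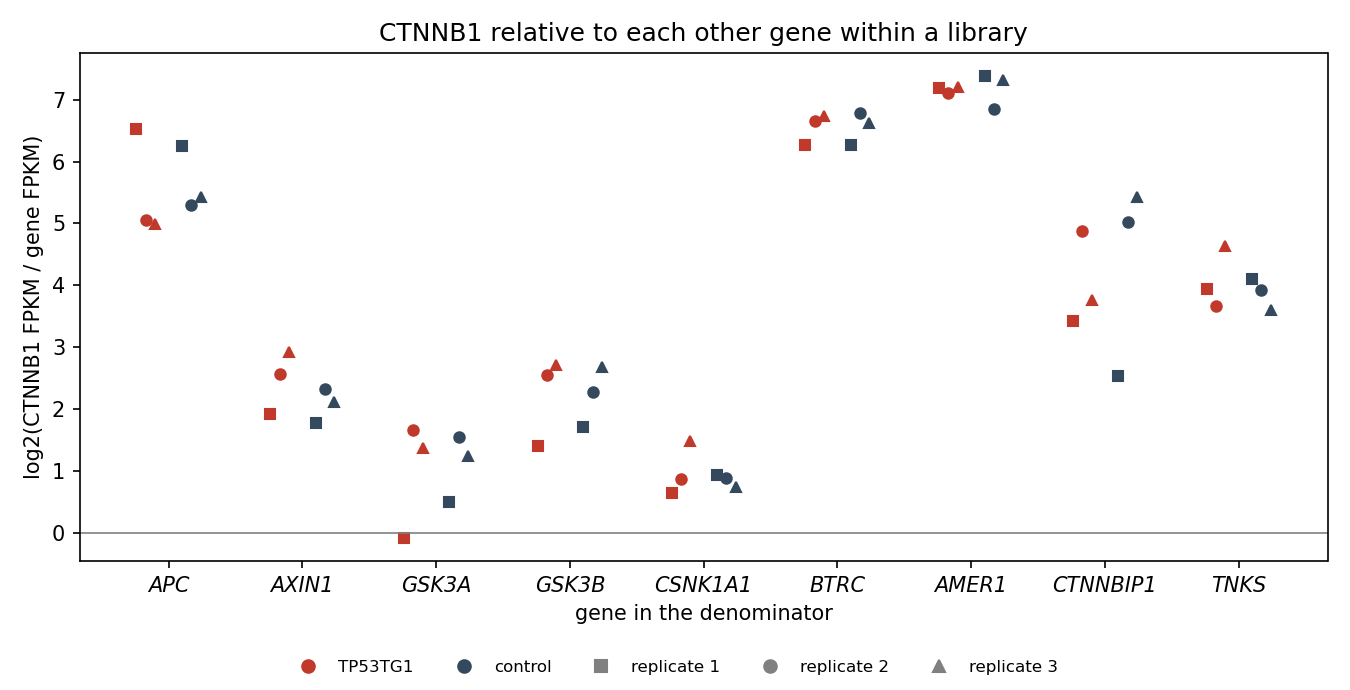
Log2 ratio of CTNNB1 FPKM to the FPKM of each other destruction complex gene in each library, TP53TG1 left of control, with symbols for the replicate number. The groups overlap for all 9 genes, and the largest difference between group means is 0.40, for AXIN1.

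Several of these genes were lower in the libraries numbered 1 than in the others, in both groups. CTNNB1 was 3.4 times higher in the mean of TP53TG1 replicates 2 and 3 than in TP53TG1 replicate 1, and 1.81 times higher in control replicates 2 and 3 than in control replicate 1. APC showed 9.7 times and 3.34 times, and TNKS 3.17 times and 2.3 times. GSK3A, with the second shortest transcripts of the members, hardly differed, at 1.13 times and 0.97 times.

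Transcript length moved with this difference over all genes. For genes under 1000 nt the median log2 difference of replicate 1 from replicates 2 and 3 was 0.05 in the TP53TG1 group and 0.46 in the control group, and for genes of 6000 nt or more it was -1.34 and -0.91. Of the long members, APC (6597 nt) was at -1.87 and -1.15 and TNKS (8049 nt) at -1.28 and -1.04, while GSK3A (2151 nt) was at -0.16 and 0.05. The shortest member, CTNNBIP1 (1233 nt), was at -0.74 and 1.61, of opposite sign in the groups and far from the medians of -0.33 and 0.23 for genes of 1000 to 2000 nt. CTNNB1 (3535 nt) was at -1.74 and -0.85, further down than the median of genes of 3000 to 4000 nt at -1.05 and -0.39. BTRC (5612 nt), at -0.61 and -0.23, was less far down than genes of 4000 to 6000 nt, at -1.25 and -0.68, although log2(FPKM + 1) compresses so low a gene. Across the 9 tested members Pearson's r of this difference with log2 length was -0.47 and -0.79 (-0.49 and -0.53 over the 8 without CTNNBIP1, a choice made after seeing the data), and across 12838 genes -0.48 and -0.45, as a description of genes that share the same libraries. The part of length in the differences between TP53TG1 and control was not tested.

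**Figure D5:**
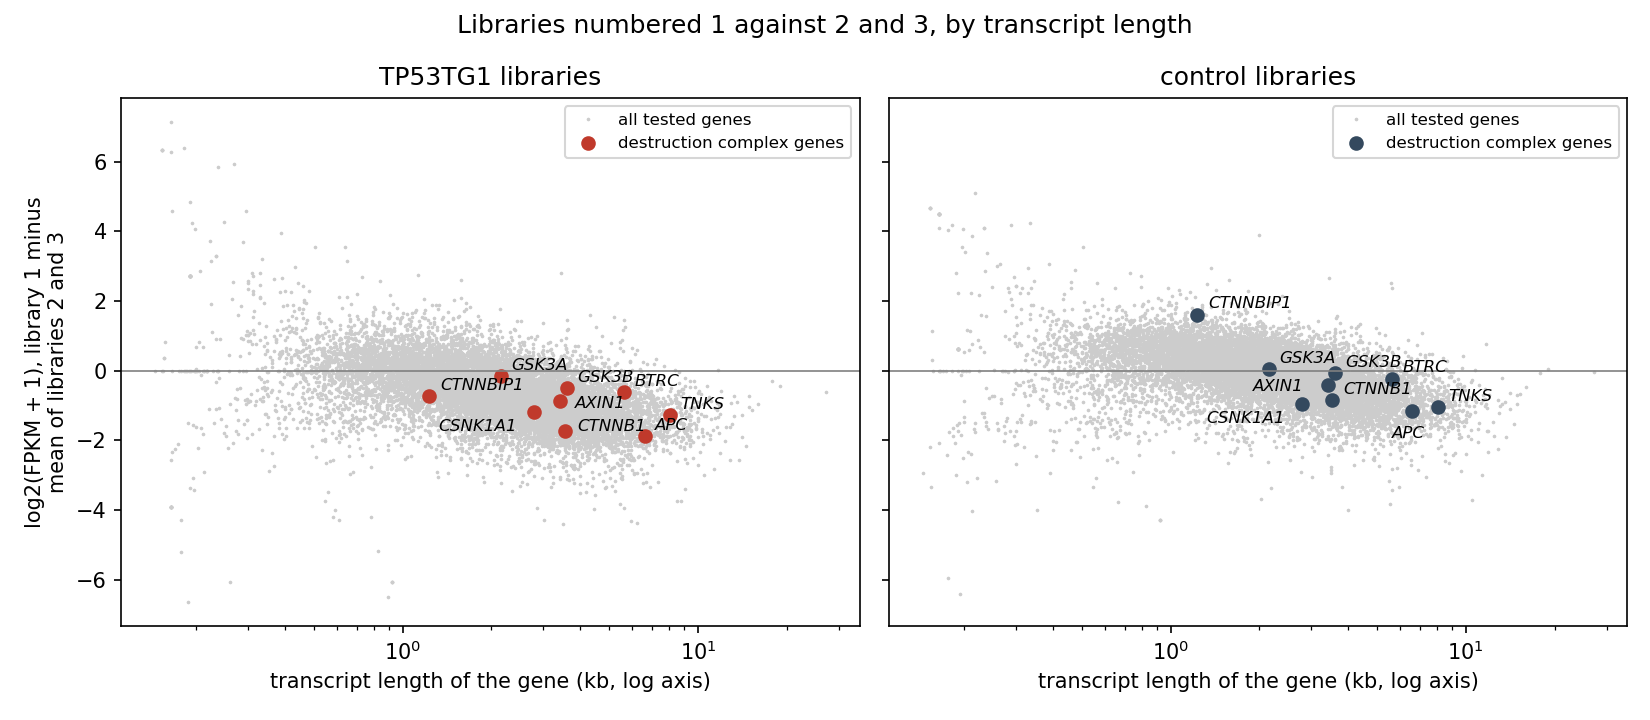
Log2(FPKM + 1) of replicate 1 minus the mean of replicates 2 and 3 against transcript length (kb, log axis), for the TP53TG1 libraries on the left and the control libraries on the right; grey points are all tested genes with a known length, coloured points the 9 tested destruction complex genes. Longer genes lie lower in both panels, and CTNNB1, at -1.74 and -0.85, lies below most genes of its length.

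With replicates 2 and 3 alone, unscaled, the members' median log2 fold change was -0.24, beside -0.16 over all tested genes, and 0 of 9 passed in limma. AXIN1 stayed the lowest at -0.63, CTNNB1 was at -0.12 and CTNNBIP1 turned to 0.66. The unadjusted limma p of AXIN1 was 0.0325, and 789 of all 12853 tested genes were under 0.05 in this fit. Since 4 libraries are few, these values describe how the order of the members depends on the libraries numbered 1.

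Other genes of the pathway gave no called change either. Of 42 genes in 6 lists, 36 were tested, 0 passed in limma in either direction and 0 had an unadjusted p under 0.05. Of all 12853 tested genes 1 passed and 302 had an unadjusted p under 0.05, so these counts of 0 are not distinct from the background. Of the 36 genes, 11 were above and 25 below the median of all tested genes. Among other subunits and paralogues 3 of 7 were tested, and the AXIN1 paralogue AXIN2, a target gene of β-catenin, had 1.53, 6.84 and 11.7 FPKM with TP53TG1 against 4.86, 7.59 and 4.99 FPKM in controls (log2 fold change -0.09, adjusted p = 0.934). FBXW11, the paralogue of BTRC, was at -0.58 and TNKS2, the paralogue of TNKS, at -0.49 on the log2 scale. FBXW11 averaged 10.9 ± 6.89 FPKM with TP53TG1 and 15.0 ± 6.68 FPKM in controls (SD, n = 3 each), and was thus more abundant than BTRC in every library, from 2.95 to 19.4 FPKM.

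All 7 ligase and ubiquitin enzyme genes were tested; the ligase subunit SKP1 averaged 340 ± 21.5 FPKM with TP53TG1 and 420 ± 71.1 FPKM in controls (log2 fold change -0.29), with SIAH1 at -0.77 and RNF146, which ubiquitinates axin marked by tankyrase, at -0.38. The other casein kinase 1 genes were also all tested, 5 of 5, with CSNK1G2 at -0.57, CSNK1E at -0.48 and CSNK1D at -0.34. Of the protein phosphatase 2A subunits, 9 of 9 were tested, and PPP2R5A, PPP2R1A and the catalytic PPP2CA were at -0.58, -0.42 and -0.65. Among 8 upstream inhibitors 7 were tested, all below the median of all genes, and FRAT2, which binds glycogen synthase kinase 3, had 2.29, 3.62 and 1.61 FPKM against 5.1, 5.23 and 4.18 FPKM (log2 fold change -0.77, SE 0.354, limma adjusted p = 0.748). LRP5, a Wnt co-receptor, was at -0.45 and GSKIP at -0.57. Of 6 junction genes 5 were tested, with the catenins CTNND1 at -0.59 and CTNNA1 at -0.31 and the cadherin CDH1 at -0.38. After median-of-ratios scaling the medians of the 6 lists lay between -0.19 and 0.07.

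Genes whose pattern over the 6 libraries came closest to that of CTNNB1 were sought outside the complex, with the members left out by rule. By the mean absolute difference of scaled, centred log2 values, these were KLHL8 at 0.0218, CHD1 (a chromatin remodeller) at 0.0354, GFM1 (a mitochondrial translation factor) at 0.0371, POLR3A (a subunit of RNA polymerase III) at 0.0425 and MED17 (a Mediator subunit) at 0.0443, where the median over 12853 tested genes was 0.435. Of the members, CSNK1A1 was nearest at 0.187 (rank 1590 among the tested genes), with APC at 0.204 (rank 1934) and TNKS at 0.22 (rank 2233). BTRC at 0.284 and AXIN1 at 0.331 were also nearer than that median. GSK3B at 0.439 and GSK3A at 0.549 were farther than it, and CTNNBIP1 was farthest at 0.834 (rank 11639). All 5 closest genes were lowest in the libraries numbered 1, which follows from choosing them by the pattern of CTNNB1.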

How the data were processed

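Total RNA of 6 samples of Huh7 cells was sequenced from TruSeq libraries, per the labels' protocols. The submitters' processing notes name HISAT2 (aligner), StringTie (transcript quantifier) and GRCh38.p10, without versions or parameters. The authors deposited FPKM-like values, 1 per annotated transcript with 2 decimals, which they had divided by transcript length and depth but, as far as any header says, by nothing else. That they are FPKM is inferred: they are not whole and, multiplied by length in kb, sum to 679383 (TP53TG1 replicate 1) to 1129554 (control replicate 1) per library. A few RNAs that take a large share of a library lower all others on this scale. Depth was estimated from the smallest steps of single-transcript genes and has no interval. The plan kept a count test for files of counts only, so it was not used for this unit.

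Missing symbols were filled by transcript from the other libraries, and transcripts were summed per gene. Coordinates, lengths and sequences came from GENCODE 29 (GRCh38). A minimum mean of 1 FPKM was required, and log2(FPKM + 1), which understates changes of low genes, was tested with limma 3.58.1 (with trend) in R 4.3.3. Fold changes are TP53TG1 minus control, and p-values were adjusted over the whole table by Benjamini-Hochberg, with a threshold of 0.05. Transcripts were tested likewise. Shares and ratios were compared with exact permutation tests, adjusted over the members. Python 3.11.15, pandas 2.3.3 and matplotlib 3.10.9 were used, and the fit was tested on simulated data.

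The members and lists were chosen with earlier results of these data known. The level of 1 marker gene is not reported here. Named were the members, TP53TG1, up to 3 genes per list by smallest p, the 5 genes most like CTNNB1, and transcripts with a mean share of at least 10% (5% for CTNNB1). Deviations from the group means correlated at 0.71, 0.562 and 0.289 between same-numbered libraries, all over 0.1. On the strength of the data and not of the labels, the numbers served as pairs in the block and in ratios by replicate number. The main fit and the printed exact tests took the group only, without pairs. For CTNNB1 the SE was 0.49 in the main fit and 0.302 with the block. Libraries of unlike number also reached 0.4. Alternatives were other scalings, pseudocounts, filters, the block, and leaving out libraries.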

Additional observations from a re-analysis of the deposited data

How the results depend on the processing

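No destruction complex gene passed under any alternative run, and the lowest adjusted p was 0.332 (AXIN1, replicate block). The unadjusted limma p of AXIN1 was 0.0178 with the block, 0.0325 in replicates 2 and 3 and 0.0246 without TP53TG1 replicate 2. In these fits 1379, 789 and 695 of all 12853 tested genes were under 0.05. In the other runs over genes the unadjusted p of AXIN1 was 0.0507 to 0.193. Over all genes the replicate block called 192 genes, and 12 transcripts, where the fit without it called 1 of each; its prior degrees of freedom for genes were infinite, so the trend alone set every variance. It changed no call among the members. Block and scaling together called 6 genes and 0 transcripts. Over all genes, median-of-ratios scaling or a minimum of 5 FPKM called 2, no filter or protein coding transcripts alone 0, and leaving out 1 library 0 to 1. Of transcripts, 0 passed with scaling, without a filter, with a minimum of 5 FPKM or in replicates 2 and 3, and 0 to 1 without 1 library.

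Several uncalled log2 fold changes turned from negative to positive, mostly where the shift of all genes was removed. Median-of-ratios scaling, with or without the block, gave 0.13 for APC, 0.09 for GSK3A, 0.21 for CTNNBIP1, 0.21 for AXIN2, 0.11 for SKP1, 0.06 for CSNK1D and 0.09 for CTNNA1. Equal totals gave 0.08 for APC, 0.11 for CTNNBIP1 and 0.13 for AXIN2. In replicates 2 and 3 APC was at 0.17, CTNNBIP1 at 0.66 and AXIN2 at 0.48. With scaling as well, chosen after seeing the data, CTNNB1 was at 0.05, APC at 0.30, BTRC at 0.03, CTNNBIP1 at 0.79, AXIN2 at 0.62, SKP1 at 0.07, RNF146 at 0.15, CSNK1D at 0.03 and CTNNA1 at 0.09. Leaving out 1 library at a time gave -0.74 to 0.16 for CTNNB1, -0.45 to 0.56 for APC, -0.32 to 0.01 for BTRC, -0.47 to 0.41 for CTNNBIP1, -1.0 to 0.09 for FBXW11, -0.59 to 0.57 for AXIN2, -0.66 to 0.09 for RNF146 and -0.56 to 0.10 for CTNNA1. Members that stayed negative also moved, to between -1.05 and -0.50 for AXIN1, -0.94 and -0.16 for CSNK1A1, -0.98 and -0.10 for TNKS and -0.57 and -0.24 for GSK3B, in each case lowest without TP53TG1 replicate 2 and nearest 0 without TP53TG1 replicate 1.

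The share of the leading transcript, TP53TG1 minus control in percentage points, was -0.28 for CTNNB1, -10.2 for BTRC and -9.87 for CTNNBIP1 in replicates 2 and 3. Without 1 library it was -0.29 to 1.51 for CTNNB1, -21.15 to 7.79 for APC, -0.28 to 2.32 for GSK3A, -2.27 to 7.26 for GSK3B, -27.80 to 10.96 for CSNK1A1, -9.71 to 31.55 for BTRC, -10.37 to 17.05 for CTNNBIP1 and -10.19 to 2.04 for TNKS. The log2 ratio of CTNNB1 to GSK3A differed by 0.12 and that to AMER1 by 0.08 in replicates 2 and 3, and over protein coding transcripts that to APC by 0.16 and that to BTRC by 0.07. Without 1 library it was -0.64 to 0.16 for APC, -0.45 to 0.42 for GSK3A, -0.10 to 0.32 for CSNK1A1, -0.16 to 0.13 for BTRC, -0.18 to 0.09 for AMER1, -1.20 to 0.25 for CTNNBIP1 and -0.08 to 0.41 for TNKS. The cause of these turns was not tested. With a pseudocount of 0.1 in place of 1, the log2 fold change was -0.24 in place of -0.07 for APC and -0.37 in place of -0.19 for BTRC, 2 genes of low FPKM.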
